A study of Mus musculus with 4 samples.

Results

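B cell genes were followed in lymph node RNA of mice with EAE (experimental autoimmune encephalomyelitis), in which immunisation against myelin drives immune cells into brain and spinal cord: Cd72, Lyn, Pax5, Bach2 and Tspan33. The 5 were chosen by symbol, as genes of B cell identity and receptor signalling, and are 5 of the 56748 gene IDs in each count table. All 4 mice had EAE; 2 had received BrQ (2-bromo-1,4-naphthalenedione, a brominated naphthoquinone) and 2 had received vehicle. The labels give the tissue as lymph node and state no strain, age, sex, dose or time. Each mouse gave 1 library of total RNA, replicates 1 and 3 in both groups, with 6813832 to 7989226 reads counted in gene intervals. Whole lymph node was sequenced, so fewer B cells and less of an RNA per B cell cannot be told apart at any point here.

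Over most of the genome the names in these tables appeared displaced from the reads of the genes they name, and a large part of the reads (86.8% to 88.8%) fell in no gene interval. Of a list of 55 other B cell genes, 51 lay where names were not read as those genes. Among these, Ms4a1, a defining B cell surface gene, held 0 reads in every library, so the tissue could not be checked on it. Of the 51, 18 held 0 reads in every library. Not every B cell name outside was empty: Blnk held 733 to 948 reads a library, which were not read as that gene. All 5 genes described here lie in parts of chromosomes 4 and 6 where names and reads were taken to meet. Reads of their neighbours are given beside this. They are no independent check, since these parts were chosen with earlier results of these data known. Nor do reads under a name show that they belong to that gene. Beside Lyn, the ribosomal protein gene Rps20 held 27062 to 41112 reads, while the oocyte kinase gene Mos held 0 reads in every library. Of the 20 nearest protein-coding neighbours, 2 on each side of each gene, 16 had enough reads to be tested and the other 4 (Fam166b, Mos, Epha7 and Gja10) stayed under 20 reads in every library.

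B cells recognise antigen through a surface immunoglobulin whose signal is carried by kinases of the Src family, of which Lyn is one. Lyn both starts the signal and restrains it, by phosphorylating inhibitory receptors that recruit phosphatases. Cd72 is such an inhibitory receptor, a C-type lectin-like protein on the B cell surface. Pax5 is the transcription factor that commits cells to the B lineage and maintains that identity, and Bach2 is a repressor that holds activated B cells back from becoming plasma cells. Tspan33 is a tetraspanin, a membrane scaffold protein of activated B cells. Lyn and Tspan33 are also used by myeloid and other blood cells, and Bach2 also by T cells.

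On GRCm38 (mm10) in GENCODE M21, Lyn lies on the plus strand at chr4:3678115-3813122, Bach2 on the plus strand at chr4:32238804-32586108, Cd72 on the minus strand at chr4:43446462-43454628 and Pax5 on the minus strand at chr4:44524757-44710487. Tspan33 lies on the plus strand at chr6:29694222-29718559. All 5 are protein-coding. Cd72 shares 41.6% of its exonic bases with Tesk1, a kinase gene on the opposite strand, so Cd72 and Tesk1 reads on the shared part are uncertain where strand was not used. For Pax5, Lyn and Bach2 the shared part was 8.60%, 6.09% and 5.40%, all with non-coding or predicted genes on the opposite strand, and Tspan33 shared none.

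RefSeq promoter windows were found for 4 of the 5 genes (Cd72, Pax5, Bach2 and Tspan33). The Bach2 window, chr4:32417185-32417434, lies inside the Bach2 interval given above and not before its start at 32238804. For PU.1, an ETS family factor of B and myeloid cells, 1 motif of 6 bases was searched. Shorter ETS motifs were not searched, so a window without this motif may still hold them. Whether this motif bears on the fall of Cd72 was not tested. The windows of Cd72, the gene that fell, and Pax5, which did not pass the test, are shown side by side, with and without this motif. Each is the 250 bases before the RefSeq start site on GRCm38.p6, written 5′ to 3′ on the gene's own strand, with a match to GAGGAA on either strand in capitals. The Cd72 window is chr4:43454627-43454876 and the Pax5 window chr4:44710695-44710944, both on the minus strand.
Cd72: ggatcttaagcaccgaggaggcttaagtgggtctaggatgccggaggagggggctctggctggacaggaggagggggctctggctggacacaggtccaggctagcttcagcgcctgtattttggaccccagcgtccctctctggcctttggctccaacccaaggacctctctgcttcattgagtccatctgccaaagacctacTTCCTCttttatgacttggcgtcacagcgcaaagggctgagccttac
Pax5: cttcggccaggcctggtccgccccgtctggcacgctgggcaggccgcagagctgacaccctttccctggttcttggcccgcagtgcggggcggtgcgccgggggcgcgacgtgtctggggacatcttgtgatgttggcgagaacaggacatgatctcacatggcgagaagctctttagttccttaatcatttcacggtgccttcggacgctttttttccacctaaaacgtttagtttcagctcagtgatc
Cd72 held 1 match, TTCCTC on the printed strand, starting at position -47 from the start site. None of the other 3 windows held GAGGAA, which occurs in 23.3% of the 32851 windows of this length. No window of the 4 held ATGCAAAT (the octamer of POU factors, in 1.60% of windows), the palindromic EBF1 motif (in 0.779%) or TGANTCA (the AP-1 and Bach core, in 6.75%), read on both strands. These matches describe letters in a window and not bound sites.

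Between the treatment groups, the receptor gene Cd72 was lower and the kinase gene Lyn higher after BrQ, while Pax5, Bach2 and Tspan33 did not pass the test. Values are given as reads and as CPM, read counts scaled to a common depth of gene reads with TMM factors. Of the 5 genes, 1 rose and 1 fell at an adjusted p of 0.05, against a background of 44.6% of all 10223 features tested (23.0% higher and 21.6% lower). Inside the parts of the genome where names and reads were taken to meet, 45.0% of the 404 tested were called (20.8% higher and 24.3% lower). With so many features called, 2 of 5 is near the background share and says nothing particular about B cell genes. Over the 5, log2 fold changes had a median of -0.22, beside 0.05 over all features.

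Cd72 held 8241 and 7952 reads in BrQ replicates 1 and 3, and 13884 and 13917 in Vehicle replicates 1 and 3. Both BrQ libraries lay far below both Vehicle libraries, and mice of the same group differed little. In CPM the levels were 1041 and 1026 against 2017 and 2136, or 1034 ± 10.5 after BrQ against 2076 ± 83.8 after vehicle (SD, n = 2 each). Cd72 thus fell 2.01-fold, a log2 fold change of -1.01 ± 0.12 (SE; adjusted p = 0.000411, edgeR's quasi-likelihood test with Benjamini-Hochberg adjustment over all features). A fall at least this large was seen in 12.9% of all features tested and in 9.65% of those in the same parts of the genome. It passed under all 14 other settings, each library left out among them.

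Lyn moved the other way. It had 8515 and 9375 reads in BrQ replicates 1 and 3, and 4230 and 4498 in Vehicle replicates 1 and 3. The groups did not overlap, and the gap was several times the spread within either group. In CPM, Lyn stood at 1076 and 1210 in BrQ and at 615 and 690.3 in Vehicle, or 1143 ± 94.8 against 652.4 ± 53.5 (SD, n = 2 each). It rose 1.75-fold, with a log2 fold change of 0.81 ± 0.13 (SE; adjusted p = 0.00163, edgeR). A rise at least this large was seen in 25.7% of all features and in 13.6% of those in the same parts of the genome, and the call of Lyn held under all 14 other settings.

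**Figure D1:**
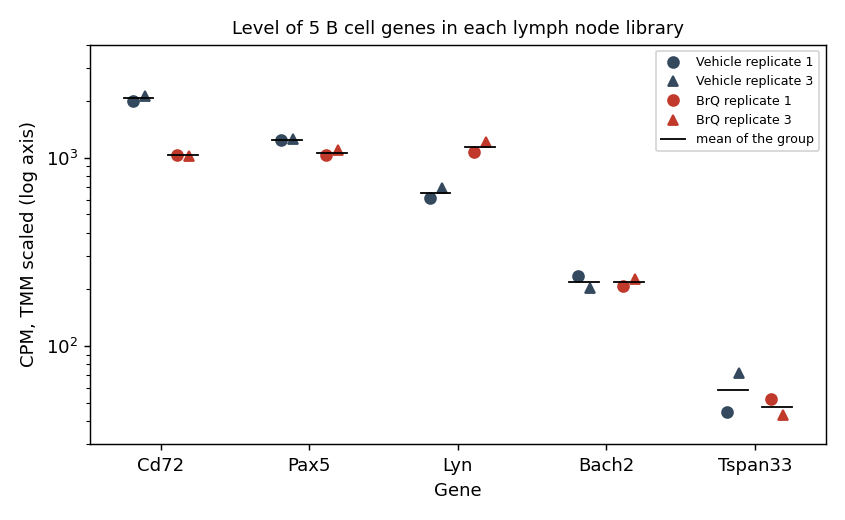
TMM-scaled CPM (log axis) of the 5 genes in each of the 4 libraries, with circles for replicate 1, triangles for replicate 3 and a line at each group's mean. Cd72 sits near 1034 CPM in BrQ and 2076 in Vehicle, Lyn near 1143 and 652.4, and the groups of Bach2 and Tspan33 overlap.

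Pax5, the lineage factor, had nearly the same reads in each library: 8183 and 8522 in BrQ, 8514 and 8178 in Vehicle. After scaling, its levels were 1034 and 1100 CPM in BrQ and 1237 and 1255 in Vehicle. Both BrQ libraries were below both Vehicle libraries, but the adjusted p of the difference was 0.160 (edgeR; log2 fold change -0.22 ± 0.12). Its sign depended on the scaling: with library size alone it was 0.15. Groups that do not overlap, in either direction, were seen for 3 of the 5 genes (Cd72, Lyn and Pax5), for 76.1% of all features tested and for 75.7% of those in the same parts of the genome.

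Bach2, the repressor of plasma cell fate, had 1653 and 1767 reads after BrQ and 1612 and 1328 after vehicle. Its CPM values of 208.8 and 228.0 in BrQ lay inside the span of the Vehicle values, 234.2 and 203.8. The log2 fold change was -0.00 ± 0.14 (SE; adjusted p = 0.985, edgeR), and its sign turned under 6 of 14 other settings.

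Tspan33 was the most thinly sequenced of the 5, with 413 and 331 reads after BrQ and 306 and 468 after vehicle. Its levels were 52.2 and 42.7 CPM in BrQ and 44.5 and 71.8 in Vehicle, so that the groups overlapped. No difference was detectable at this spread (log2 fold change -0.29 ± 0.24, adjusted p = 0.340, edgeR). The result turned on single Vehicle mice: without Vehicle replicate 1 the log2 fold change was -0.62 and passed (adjusted p = 0.0258, edgeR), and without Vehicle replicate 3 it was 0.08.

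Scaling moved the median of all features, from 0.05 in the main comparison to 0.42 where libraries were scaled by their gene reads only and 0.25 where they were scaled by every read row. Relative to that median, Cd72 stood between -1.06 and -1.05 and Lyn between 0.76 and 0.77 under each of the 4 other scalings of all libraries. A change of scaling shifts every gene and the median by nearly the same amount, so these values could hardly have differed. Pax5, which was not called, was as steady (-0.28 to -0.27). Mitochondrial transcripts took 12.1% and 15.8% of gene reads in BrQ and 20.6% and 30.3% in Vehicle. With the mitochondrial rows left out before TMM scaling, Cd72 stayed at -1.01 and Lyn at 0.81. TMM sets aside features with extreme values in any case, so these values too could hardly have differed. Whether the mitochondrial share bears on either gene was not tested.

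Levels of different genes were compared per kilobase of exon, since longer transcripts collect more reads. In Vehicle the order of CPM per kilobase was Cd72 (606.8 ± 24.5), Lyn (160.2 ± 13.1), Pax5 (140.7 ± 1.44), Bach2 (22.0 ± 2.16) and Tspan33 (11.2 ± 3.72; SD, n = 2 each). In BrQ the same order held, but Cd72 (302.0 ± 3.07) and Lyn (280.5 ± 23.3) were neighbours whose gap was smaller than the spread of Lyn, followed by Pax5 (120.5 ± 5.27), Bach2 (22.0 ± 1.37) and Tspan33 (9.13 ± 1.29). The Cd72 level was divided by all 3422 exonic bases, of which 1423 are shared with Tesk1. Whether reads on the shared part were counted for Cd72 is not known. If they were left out, the Cd72 levels per kilobase are too low. The small gap between Cd72 and Lyn in BrQ is therefore uncertain.

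Ratios between 2 of the genes within a library do not depend on any scaling between libraries, and gene length cancels when such a ratio is compared between mice. Cd72 had 0.968 and 0.848 reads for each Lyn read in BrQ replicates 1 and 3, and 3.28 and 3.09 in Vehicle replicates 1 and 3. The balance of the inhibitory receptor to the kinase was therefore 3.52-fold lower in BrQ (log2 ratio -0.14 ± 0.13 against 1.67 ± 0.06, SD, n = 2 each; difference -1.81). This difference is the fall of Cd72 and the rise of Lyn put together and not a separate effect.

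Set against Pax5, which all B cells short of the plasma cell stage use, both genes kept their direction. Cd72 had 1.01 and 0.933 reads for each Pax5 read in BrQ, and 1.63 and 1.70 in Vehicle, a log2 difference of -0.78. Pax5 had 0.961 and 0.909 reads for each Lyn read in BrQ, and 2.01 and 1.82 in Vehicle, a log2 difference of -1.03. The ratio of Cd72 to Bach2 went from 8.61 and 10.5 in Vehicle to 4.99 and 4.50 in BrQ, and that of Lyn to Bach2 from 2.62 and 3.39 to 5.15 and 5.31. Like the ratio of Cd72 to Lyn, these ratios restate the changes of the single genes and are not separate effects.

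Pax5 and Bach2 differed little from each other between the groups: their ratio was 4.95 and 4.82 in BrQ and 5.28 and 6.16 in Vehicle (log2 difference -0.22). Of the 10 pairs, 8 had groups that did not overlap, beside 77.1% of the 35511 pairs of protein-coding genes in the same parts of the genome with at least 10 CPM, so this count is near the background. The exceptions were Pax5 and Bach2 each set against Tspan33. With 2 mice against 2, the two-sided exact permutation test cannot go below p = 0.333, which is the value of each of the 8 pairs (adjusted p = 0.417 over the 10).

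**Figure D2:**
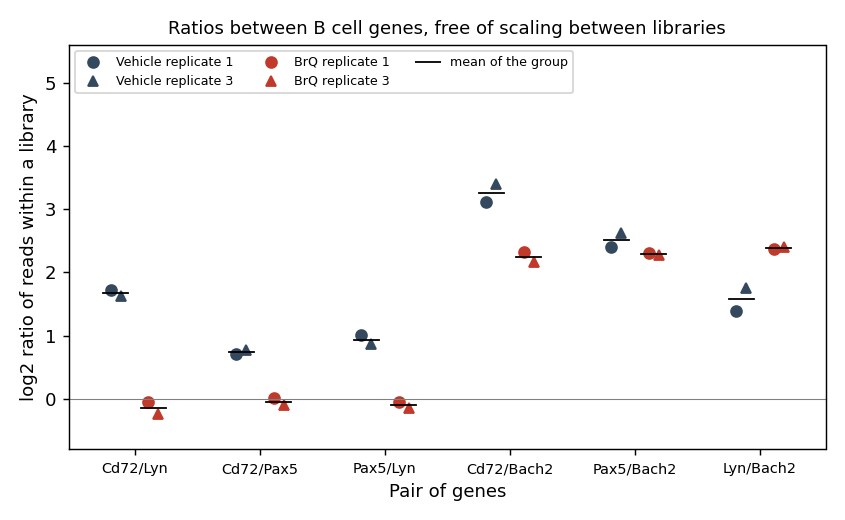
Log2 ratio of reads between pairs of the 5 genes within each library (circles, replicate 1; triangles, replicate 3; lines, group means; no scaling between libraries). The Cd72/Lyn points are at 1.67 on average in Vehicle and -0.14 in BrQ, while the Pax5/Bach2 groups lie close together.

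Other B cell genes were read where the fixed list reached the same parts of the genome, which left 4 of 55. Irf5, a transcription factor of B and myeloid cells that acts downstream of Toll-like receptors, stood at 729.5 and 747.9 CPM in BrQ and 572.6 and 552.9 in Vehicle. It was the 1 of the 4 that passed (log2 fold change 0.39 ± 0.12, adjusted p = 0.0288, edgeR), and it lost the call without each of the 4 libraries in turn (adjusted p between 0.0538 and 0.165, edgeR) and with the replicate number as a block (adjusted p = 0.0696, edgeR). Map3k7, the kinase TAK1 on the path from the B cell receptor to NF-kB, did not pass, at 261.7 ± 7.34 against 300.1 ± 32.2 CPM. Akirin2, a nuclear cofactor needed for B cell activation, was at 151.6 ± 13.8 against 187.6 ± 11.7 CPM (adjusted p = 0.11, edgeR).

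Fbxo10, a ubiquitin ligase subunit that targets BCL2, was at 8.98 ± 2.48 CPM in BrQ and 15.2 ± 4.17 in Vehicle (adjusted p = 0.0789, edgeR). It passed without BrQ replicate 1 or without Vehicle replicate 1. These 4 had a median log2 fold change of -0.25, beside 0.05 over all features.

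Markers of other cells that could be read were few. Of 3 T cell genes, Il7r, the interleukin 7 receptor, and Sit1, a T cell adaptor, were lower (log2 fold change -0.61 and -0.78) and Tox, a factor of T cell differentiation, was higher (0.72). Their CPM in BrQ and Vehicle was 562.2 ± 63.3 and 856.4 ± 62.6 for Il7r, 78.7 ± 3.33 and 134.9 ± 15.9 for Sit1, and 76.0 ± 6.44 and 46.0 ± 0.859 for Tox. The T cell list thus had no single direction. Scaled by library size alone, Il7r and Sit1 were no longer called (adjusted p = 0.284 and 0.0945, edgeR), and Il7r and Tox without BrQ replicate 1 (adjusted p = 0.0625 and 0.0530, edgeR).

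Of the 2 cycling-cell genes, Melk, a mitotic kinase of dividing cells, was higher at 68.2 ± 1.95 CPM in BrQ against 44.6 ± 3.62 (adjusted p = 0.0161, edgeR), a call lost without BrQ replicate 1, without BrQ replicate 3 or without Vehicle replicate 1. Ccne2, a cyclin of the entry into S phase, was at 39.1 ± 6.90 against 53.7 ± 12.6 CPM and did not pass. Of the 2 genes on the myeloid list, Irf5 is given above and Klf4, a zinc finger factor of monocytes and stroma, was at 25.0 ± 3.60 against 20.5 ± 4.80 CPM (adjusted p = 0.373, edgeR). Myeloid cells also use Lyn, and their part in its rise was not tested.

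Among 3 stroma genes only Col1a2, a fibroblast collagen, was tested; it fell from 21.7 ± 5.38 to 12.6 ± 1.53 CPM (adjusted p = 0.0378, edgeR), a call lost under 7 of 14 other settings, the replicate block among them. With library size alone, for example, its adjusted p was 0.271 (edgeR), and without Vehicle replicate 3 it was 0.191 (edgeR).

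**Figure D3:**
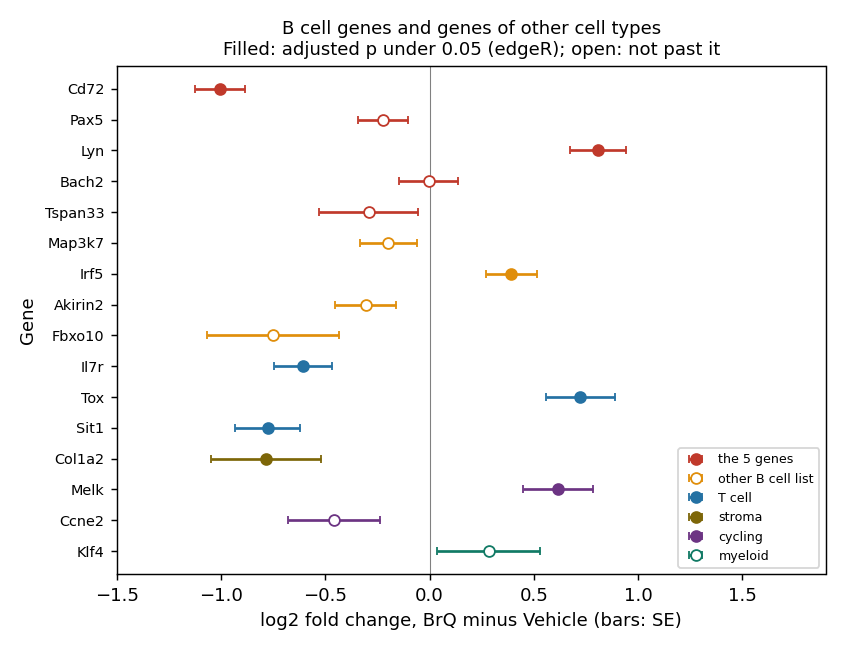
Log2 fold change (BrQ minus Vehicle) with its SE for the 5 genes and for the listed genes of other cell types in the same parts of the genome, filled where the adjusted p is under 0.05. Cd72 is at -1.01 and Lyn at 0.81, and the T cell genes lie on both sides of 0.

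Ratios of each of the 5 genes to Il7r, Tox and Sit1 within a library were compared in the same way, 15 in all. Groups did not overlap for 12, again near the 77.1% of all such pairs, of which 6 were higher and 6 lower in BrQ (each p = 0.333, exact permutation test, the smallest possible; adjusted p = 0.417). Lyn had 0.757 and 0.766 reads for each Il7r read in Vehicle and 2.08 and 1.99 in BrQ. Cd72 had 43.3 and 47.0 reads for each Tox read in Vehicle and 12.9 and 14.4 in BrQ.

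Pax5 was higher in BrQ relative to Il7r (log2 difference 0.38) and Sit1 (0.55) but lower relative to Tox (-0.95), and so was Bach2 (0.61, 0.77 and -0.72). For Pax5 and Bach2 the sign therefore depended on the T cell gene taken. Cd72 was lower against all 3 T cell genes (log2 difference -0.40 for Il7r, -1.73 for Tox and -0.23 for Sit1). The ratio of Lyn to Tox was 13.3 and 16.9 in BrQ and 13.2 and 15.2 in Vehicle, and the groups overlapped.

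Neighbouring genes were tested beside each of the 5. Around Cd72, 3 neighbours were tested and all 3 were lower in BrQ. In the same parts of the genome, 24.3% of the features tested were lower. Tesk1, which overlaps Cd72 on the other strand, had 2977 and 2534 reads after BrQ and 4729 and 5364 after vehicle (log2 fold change -1.10 ± 0.15). Sit1, 27453 bases away, is given above.

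Ccdc107, a transmembrane protein gene 38272 bases away, had 570 and 533 reads after BrQ and 1655 and 2005 after vehicle (log2 fold change -1.96). What the overlap with Tesk1 contributed to the fall of Cd72 was not tested. Beside Lyn, Tmem68 (log2 fold change 0.46, adjusted p = 0.156, edgeR) and Tgs1, an RNA cap methylase gene (0.25, adjusted p = 0.196, edgeR), did not pass, and Rps20 was lower (-0.82). Beside Pax5, Zcchc7, an RNA surveillance gene, was lower (3007 and 2522 reads after BrQ, 4386 and 5050 after vehicle) and Melk higher (0.61). Beside Tspan33, Irf5 (0.39) and Ahcyl2 (0.42) were higher, Smo was lower (-1.21, with 23 to 95 reads) and Tnpo3 did not pass. Of the 16 neighbours tested, 3 were higher and 6 lower, beside 20.8% and 24.3% of the 404 features tested in these parts.

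**Figure D4:**
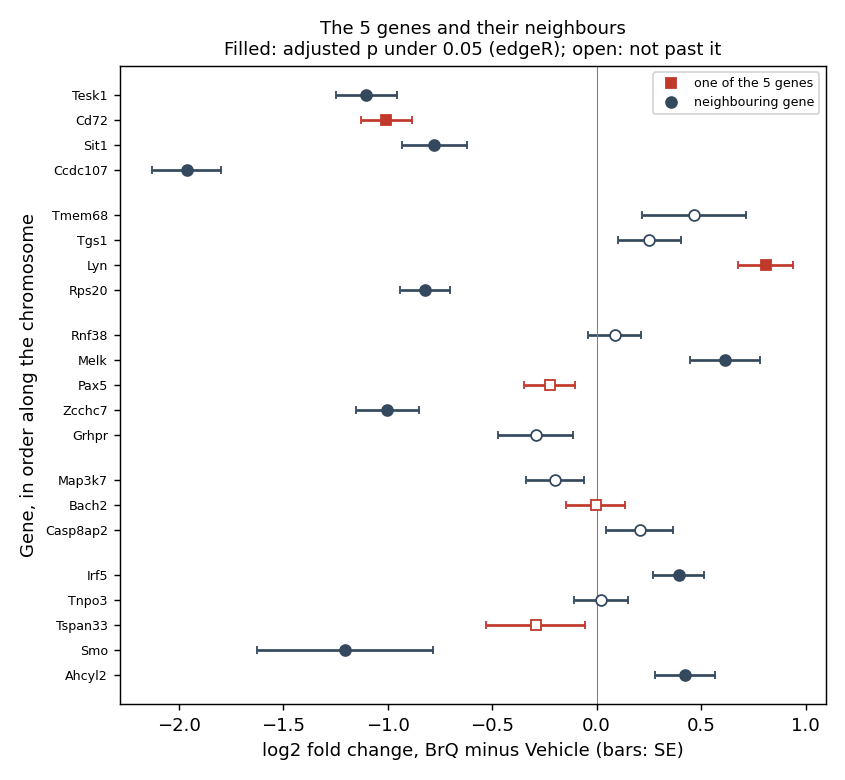
Log2 fold change (BrQ minus Vehicle) with its SE for the 5 genes (squares) and the tested ones of their 2 nearest protein-coding neighbours on each side (circles), in order along the chromosome, filled where the adjusted p is under 0.05. Tesk1, Cd72, Sit1 and Ccdc107 are all below 0, while Lyn at 0.81 stands beside Rps20 at -0.82.

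Genes with the pattern closest to each of the 5 were sought among 262 protein-coding genes in the same parts of the genome with a mean of at least 10 CPM. Likeness was the root mean square distance of centred log2 CPM over the 4 libraries. Nearest to Cd72 were Gba2, a glucosylceramidase gene (distance 0.02), Ankrd6 (0.03) and Arf5, a small GTPase gene (0.06). Gba2 went from 404.8 and 427.1 CPM in Vehicle to 203.9 and 199.0 in BrQ. It lies at chr4:43566928-43578873, near Cd72, Tesk1, Sit1 and Ccdc107, while Ankrd6 lies at chr4:32804035-32950841 and Arf5 on chromosome 6. Gba2 was picked for its likeness to Cd72, so its fall is no separate sign of a fall across that region.

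Nearest to Lyn were Ptbp3, an RNA-binding splicing regulator (distance 0.07), Mdfic (0.07) and Stra6l (0.07), and Ptbp3 went from 524.1 and 558.6 CPM to 988.5 and 1036. Pax5 had Epc1, a subunit of a histone acetyltransferase complex (0.03), Mrpl50 (0.04) and Slc25a51 (0.04) as its nearest. Bach2 had Atpsckmt (0.07), Zeb1 (0.08) and Aptx (0.09), and Tspan33 had Manea (0.07), Asns (0.08) and Mms22l (0.09). With 4 libraries such likeness is a description of 4 values per gene.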

How the data were processed

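Per the labels' protocols, libraries came from total RNA of integrity above 8 and were read from both ends. Per the submitters' processing notes, the tools were HTSeq 0.11.2, HISAT2 2.1.0 and Trim Galore 0.6.2, and the genome mm10. Which annotation was counted, and whether by strand, is not given in the sources used here. As raw read counts per gene ID, the authors deposited 1 table per mouse. The 5 closing rows that name no gene took 87.0% to 89.0% of all read rows and entered neither library sizes nor tests. Groups and replicate numbers came from the titles. Mice of 1 group differed far beyond counting noise (chi-square over its degrees of freedom 13.9 for BrQ, 31.1 for Vehicle), so no library is a copy.

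Members, gene lists and genome parts were chosen with earlier results of these data known. The parts were chromosome 4 from 3 to 41 and from 43 to 62 Mb, chromosome 6 from 3 to 17 and from 28 to 30 Mb, chromosome 15 from 9 to 38 Mb and chromosome 18 from 3 to 10 Mb, which held 490 protein-coding genes. Positions and exon lengths came from GENCODE M21 (52073 IDs matched), promoters from RefSeq on GRCm38.p6. All features were tested together with edgeR 4.0.16 (filterByExpr, TMM, estimateDisp, quasi-likelihood test) in R 4.3.3, on 4 libraries, modelled by group, with a Benjamini-Hochberg threshold of 0.05. The SE is the fold change over the root of F. Named genes were the 5, the listed genes inside the parts, the 3 nearest patterns per gene and the neighbours. Alternatives were other scalings, no low count filter, DESeq2 1.42.0, limma voom (3.58.1), the replicate number as a block, and each library left out. For ratios, prior counts of 0.5 and 5 were tried. With 2 mice a group, the spread behind the edgeR p-values rests on these 4 animals and on sharing across features. How far the results hold beyond these animals is uncertain. Figures were drawn with matplotlib 3.10.9.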

Additional observations from a re-analysis of the deposited data

Results flagged for a closer look

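Reads in no gene interval lie outside the gene counts compared above, and their share was higher in both BrQ libraries (mean 88.7%) than in both Vehicle libraries (mean 87.3%). This share is not separate from the mitochondrial reads, which are part of its total. They took 15.8% and 12.1% of gene reads in BrQ replicates 1 and 3, and 20.6% and 30.3% in Vehicle replicates 1 and 3. Whether the groups differ with mitochondrial reads left out of the total was not tested.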

How the results depend on the processing

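The calls of Cd72 (-1.07 to -0.63) and Lyn (0.70 to 1.18) kept their direction and passed under all 14 other settings. Pax5, Bach2 and Tspan33 stayed short of the threshold except Tspan33 without Vehicle replicate 1. With library size alone the signs of Pax5 (0.15), Bach2 (0.36) and Tspan33 (0.10) turned, as did those of Map3k7 (0.18) and Akirin2 (0.067). Library size from all read rows turned Bach2 (0.20) and Map3k7 (0.015), and fitting the genome parts alone or using no low count filter turned Bach2 (0.078 and 0.029). With a library left out, the log2 fold change ranged from -0.11 to 0.076 for Bach2 and from -0.62 to 0.081 for Tspan33. With a library left out, features called ranged from 2649 (without BrQ replicate 3) to 4572 over all features and from 90 to 182 inside the genome parts, where 182 was the main count; 4712 were called with no low count filter, and 201 inside the parts when fitted on them alone. The split of 2351 higher and 2205 lower became 3444 and 1006 with library size alone, and 2970 and 1530 where every read row was used. DESeq2 called 3498 features.

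Among ratios with a library left out, Pax5/Tspan33 ranged from -0.30 to 0.37, Bach2/Tspan33 from -0.19 to 0.70 and Lyn/Tox from -0.084 to 0.26; no other ratio changed sign. Same-numbered mice did not deviate together (correlation -0.12 over 10173 features), so the numbers were not taken as pairs. With the replicate number as a block 4119 features were called (153 inside the parts), and Cd72 (-1.01) and Lyn (0.81) passed; with the numbers crossed, chosen after seeing the data, 5183 were called. Leaving out a library leaves 1 mouse in its group, assumed to vary like the mice of the other. Tspan33 had the fewest reads of the 5, 306 to 468 a library.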
